A study of Mus musculus with 17 samples.

Results

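The clearance of dying cells by Kupffer cells was followed through 10 genes that encode receptors, bridging proteins, an exposed ligand and a cytoskeletal adaptor of apoptotic cell uptake. The receptors are Timd4, Stab1, Mertk, Axl and Lrp1, the bridges are Gas6, Pros1 and Mfge8, the ligand is Calr, and the adaptor is Elmo1. The genes were chosen by symbol, with earlier results of these data known. All 10 were found among the 25124 genes of each of 3 deposited expression tables. RNA was sequenced from sorted liver Kupffer cells of mice, the resident macrophages of the hepatic sinusoids, in 17 samples. The tables set tumour-bearing beside tumour-free liver in 2 Kupffer cell subsets and ask which genes respond to a growing tumour, and set Id3-deleted beside control cells and ask which genes depend on the transcriptional regulator ID3.

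The TIM4+CD206+ subset and the TIM4+CD206hi subset, which carries more of the mannose receptor CD206 at its surface, each gave 3 samples from untreated tumour-free mice and 3 from mice whose portal vein had received KPC cells 2 weeks earlier. KPC cells come from a mouse pancreatic adenocarcinoma. The Id3 table held 3 samples from Id3f/f mice and 2 from Clec4fCreId3f/f mice, all untreated. Both of these genotypes carry the floxed Id3 allele, and Cre is expressed from the promoter of Clec4f, a lectin gene of Kupffer cells, so deletion is limited to cells that have used that promoter. The labels give no strain, age or sex for any group. The study describes the Id3 samples as coming from mice of each genotype that were littermates. For the tumour tables the labels do not say whether the samples of a group came from separate animals, so those p-values measure only the spread between samples. Nor do they say whether both subsets were sorted from the same animals, so results of the subsets may not be independent.

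Apoptotic cells expose phosphatidylserine on their outer membrane, and macrophages recognize it either directly or through soluble bridges. TIM4 and stabilin-1 bind phosphatidylserine themselves, the receptor tyrosine kinases MERTK and AXL bind it through the bridge GAS6 or, for MERTK, protein S, and MFGE8 links it to integrins. Calreticulin on the dying cell is read by LRP1, and ELMO1 acts with DOCK proteins to activate the GTPase Rac and close the phagocytic cup, a route by which Kupffer cells remove dying blood cells and hepatocytes.

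Values were on a log2 scale, so that a difference of 1 is a doubling, and each table had been normalized on its own; levels in different tables are therefore given side by side without a test. Sequencing depth is unknown, since the tables hold no counts. Some libraries stood apart. In the TIM4+CD206+ table, tumour-free replicate 2 differed from the mean of its group mates with an SD over genes of 0.68, against 0.36 to 0.52 in the other 5 samples. In the TIM4+CD206hi table the SD was 0.76 in tumour-free replicate 2 and 0.79 in tumour-free replicate 3, against 0.24 to 0.46 in the rest. In the Id3 table it ran from 0.12 to 0.19.

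The labelled cell type was checked against its markers. None of 12 Kupffer cell markers was at 0 in any table. Clec4f was the most abundant of them in both tumour tables. It lay between 18.47 and 19.65 in the TIM4+CD206+ samples and between 17.60 and 18.45 in the TIM4+CD206hi samples. In both subsets it was lower in every tumour-bearing than in any tumour-free sample. Those changes were -0.79 ± 0.21 (SE, limma adjusted p = 0.0925) and -0.58 ± 0.18 (SE, adjusted p = 0.119), and neither passed. Mrc1, which encodes CD206, averaged 12.80 ± 0.39 (SD, n = 3) in TIM4+CD206+ and 15.68 ± 0.59 (SD, n = 3) in TIM4+CD206hi tumour-free cells. Id3 itself read 12.58, 12.46 and 12.82 in the Id3f/f samples and 9.83 and 9.82 in the Clec4fCreId3f/f samples, and fell by 2.80 ± 0.11 (SE, adjusted p = 1.40e-06), lower in 2 of 2 samples. Clec4f also fell in the Clec4fCreId3f/f samples, from 17.59, 17.62 and 17.71 to 16.13 and 16.11, a change of -1.52 ± 0.06 (SE, adjusted p = 1.80e-06).

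Levels of the 10 genes were set in order within each group after subtraction of the log2 transcript length in kb. In tumour-free TIM4+CD206+ cells the log2 level per kb was highest for Calr (14.06 ± 0.40, SD, n = 3), Axl (13.79 ± 0.20) and Timd4 (13.57 ± 0.16), whose samples overlapped from each gene to the next. Lrp1 (11.16 ± 0.02) and Mertk (10.28 ± 0.20) followed on the same per-kb scale, each apart from its neighbours. Pros1 (8.99), Stab1 (8.72), Elmo1 (8.38), Mfge8 (8.14) and Gas6 (7.06) closed that order, every one of them overlapping with the next. All samples of Timd4 and Axl thus stood above all samples of the 3 bridges on the per-kb scale.

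In tumour-free TIM4+CD206hi cells the same per-kb order began with Timd4 (13.73 ± 0.35, SD, n = 3), Calr (13.39 ± 0.54) and Axl (13.23 ± 0.18), which again overlapped from one to the next. The bridges stood higher in the order of this table: Pros1 was the 4th gene, at a log2 level per kb of 12.10 ± 0.77, and Mfge8 the 6th, at 11.09 ± 0.29. Gas6 (9.86 ± 1.45) and Elmo1 (8.76 ± 0.41) came last and overlapped with each other. With tumour the per-kb order opened with Calr in both subsets, at 13.76 ± 0.10 in TIM4+CD206+ and 13.53 ± 0.05 in TIM4+CD206hi cells, in each case above all samples of the next gene.

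Id3f/f cells had Timd4 at the head of their per-kb order (13.84 ± 0.04, SD, n = 3), above all samples of Calr (12.96 ± 0.26), which in turn lay above all samples of Axl (12.02 ± 0.07). Mfge8 was the lowest of the 10 in this table, with a log2 level per kb of 6.34 ± 0.06, and Stab1 (6.59 ± 0.12) the next lowest. The order of the 10 genes was identical in Clec4fCreId3f/f cells, from Timd4 at 13.84 ± 0.05 (SD, n = 2) to Mfge8 at 6.07 ± 0.05. Pros1 and Lrp1 were the 1 pair of neighbours that overlapped in both genotypes.

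**Figure D1:**
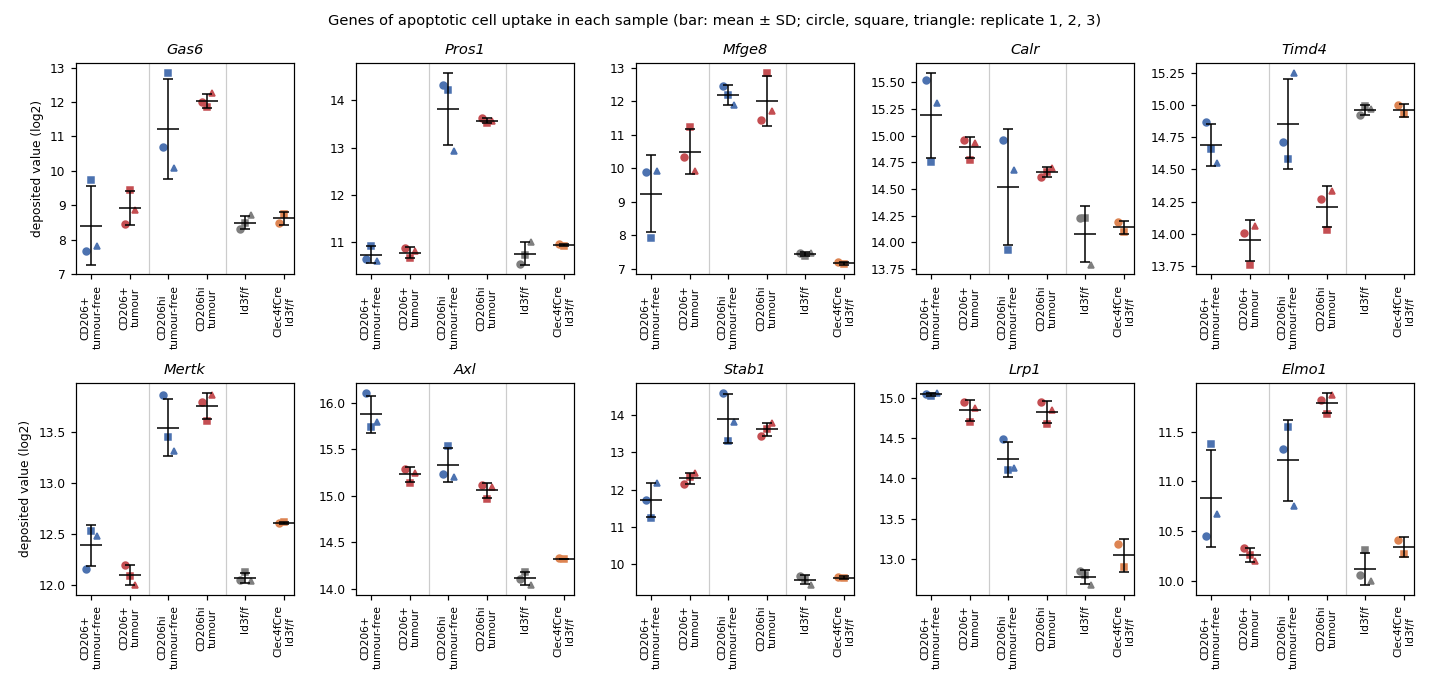
Deposited log2 value (vertical axis) of each of the 10 genes in each of the 17 samples, by group (horizontal axis); points are samples and short lines are group means. Timd4 lies between 13.76 and 14.06 in the tumour-bearing TIM4+CD206+ samples, below all 3 tumour-free samples, and Mertk lies at 12.61 and 12.62 in Clec4fCreId3f/f cells, above all 3 Id3f/f samples.

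With tumour, TIM4+CD206+ Kupffer cells had less Timd4 transcript. It was the 1 gene of the 10 that passed the test, and its change was a decrease. Of the other 9 genes, Axl, Lrp1 and Elmo1 were lower and Mfge8 was higher in all 3 tumour-bearing samples than in any tumour-free sample, without passing. Over all 13233 genes tested, 469 were called at an adjusted p under 0.05, which is 3.54%, with 337 higher (2.55%) and 132 lower (0.998%). That balance turned round without tumour-free replicate 2, where 427 were higher and 595 lower. Every sample of 1 group lay beyond every sample of the other for 5 of the 10 genes, against 23.4% of all genes tested. The median change of the 10 genes was -0.25, against 0.02 over all genes. Both the gene calls and the background rest on single libraries: the number of genes called was 243, 1022 and 259 without tumour-free replicates 1, 2 and 3, and 246, 231 and 261 without tumour-bearing replicates 1, 2 and 3, and the number called among the 10 was 3 without tumour-free replicate 2 and 0 without any other sample.

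In TIM4+CD206hi cells none of the 10 genes passed limma at an adjusted p under 0.05, and 3 had an unadjusted p under 0.05: Timd4, which was lower with tumour, and Lrp1 and Elmo1, which were higher. Across the 14561 genes tested, 1053 (7.23%) were called, 758 higher (5.21%) and 295 lower (2.03%). Groups did not overlap for 4 of the 10 genes, Timd4 and Axl being lower and Lrp1 and Elmo1 higher, against 30.7% of all genes. The median change of the 10 genes was -0.02, against 0.03 over all genes. Centring each sample on its median moved the median change of all genes by -0.16. With that centring the change was -0.80 for Timd4, -0.43 for Axl, 0.43 for Lrp1 and 0.42 for Elmo1. Without centring it was -0.64, -0.27, 0.59 and 0.58 in that order. Under quantile normalization Lrp1 passed the test (0.77, adjusted p = 0.0356), and the calls over all genes were 664 higher and 518 lower. Without tumour-free replicate 2 the number of the 10 genes called was 3 and without tumour-free replicate 3 it was 1. All genes called numbered 649 without tumour-free replicate 1, 3634 without replicate 2, and 579, 582 and 637 without tumour-bearing replicates 1, 2 and 3.

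With Id3 deletion Mertk was higher, the 1 gene of the 10 that passed the test in that comparison. Sex-linked transcripts, given below, also differed between the genotypes, so sex and genotype cannot be told apart in this comparison. Of all 12833 genes tested, 827 (6.44%) were called, 395 higher (3.08%) and 432 lower (3.37%). Mertk, Axl and Lrp1 were higher and Mfge8 was lower in both Clec4fCreId3f/f samples than in any Id3f/f sample, which makes 4 of 10 genes without overlap, against 41.9% of all genes. The median change of the 10 genes was 0.15, against 0.00 over all genes. With each sample centred on its median, the calls over all genes were 328 higher and 550 lower. The number of genes called was 207, 410 and 1850 without Id3f/f replicates 1, 2 and 3, and 17 and 19 without Clec4fCreId3f/f replicates 1 and 2. Without either of these last samples none of the 10 was called, and the lone sample left was assumed to vary like the other group. Without Id3f/f replicate 3, 2 of the 10 were called.

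**Figure D2:**
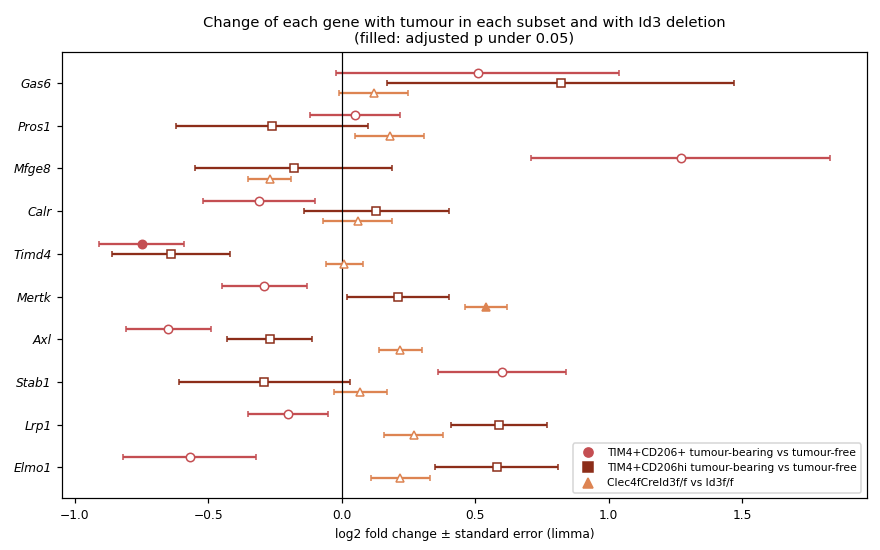
Log2 change of each of the 10 genes (horizontal axis, log2 units) in the 3 comparisons; points are limma estimates, bars are 1 standard error, and filled points are changes with an adjusted p under 0.05. The filled points are Timd4 at -0.75 in TIM4+CD206+ cells with tumour and Mertk at 0.54 with Id3 deletion. In the Id3 comparison sex and genotype cannot be told apart.

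Transcripts that mark other cell types were present in these samples. Which cells they came from was not tested, and in bulk RNA a change in the number of cells and a change in RNA per cell cannot be told apart. The summed level of each marker list is the log2 of its summed linear values, in which the most abundant genes weigh most. Of 11 pancreatic tumour epithelium markers tested, 10 rose in TIM4+CD206+ and 11 in TIM4+CD206hi cells. The summed level of the list was 11.24, 10.89 and 11.77 in tumour-free against 15.34, 15.22 and 15.12 in tumour-bearing TIM4+CD206+ samples. In TIM4+CD206hi samples that sum was 11.03, 11.38 and 10.82 without tumour and 15.70, 15.73 and 15.62 with it. Its most abundant gene was Krt8, and none of the 12 was at 0. In each subset 7 of 12 hepatocyte markers fell with tumour, and none was at 0. The hepatocyte sum was 15.06, 14.66 and 15.38 without and 13.84, 13.44 and 13.92 with tumour in TIM4+CD206+ samples, and 14.77, 14.52 and 15.37 without and 13.67, 13.38 and 13.65 with tumour in TIM4+CD206hi samples; in both subsets the most abundant gene was Alb without and Hpx with tumour.

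Some monocyte and neutrophil markers rose too. In both subsets 5 of 11 monocyte or recruited macrophage markers and 5 of 10 neutrophil markers rose with tumour. Plac8 had the highest mean among the monocyte markers, except with tumour in TIM4+CD206hi cells, where Fn1 had it. The summed monocyte level was 15.30, 13.96 and 14.77 without and 15.83, 15.57 and 15.68 with tumour in TIM4+CD206+ samples, and 14.77, 15.33 and 14.77 without and 15.81, 15.71 and 15.83 with tumour in TIM4+CD206hi samples. For neutrophils the sum was 13.34, 13.06 and 14.05 without and 15.14, 15.02 and 15.01 with tumour in TIM4+CD206+ samples, where the most abundant gene was Csf3r without and S100a9 with tumour. It was 12.53, 12.70 and 13.72 without and 14.67, 14.51 and 14.03 with tumour in TIM4+CD206hi samples, where it was Csf3r in both groups. Of the B cell markers 3 of 5 tested fell in TIM4+CD206+ and 3 of 7 in TIM4+CD206hi samples, with Cd79b the most abundant; the sum was 13.18, 13.20 and 13.24 against 12.09, 12.21 and 12.26 in the former and 11.91, 12.12 and 12.10 against 11.08, 11.13 and 11.05 in the latter. No marker of these 3 lists was at 0 in every sample of either tumour table. None of 9 T or NK cell markers and none of 6 dendritic cell markers passed limma with tumour. At an unadjusted p under 0.05 there were 3 and 1 in TIM4+CD206+ and 6 and 1 in TIM4+CD206hi samples. Without overlap between groups, 4 T or NK cell markers were lower in TIM4+CD206+ and 6 in TIM4+CD206hi samples, and 0 were higher. Their sum was 12.47, 11.58 and 12.17 without and 11.51, 11.50 and 11.55 with tumour in TIM4+CD206+ samples. In TIM4+CD206hi samples it was 11.53, 11.38 and 11.56 without and 10.83, 10.86 and 10.81 with tumour.

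Endothelial markers stood high in 1 table. The summed level of 14 sinusoidal endothelial markers, none of them at 0, was 15.04, 14.08 and 14.76 in tumour-free and 13.72, 13.76 and 14.21 in tumour-bearing TIM4+CD206+ samples, where none passed limma and 3 had an unadjusted p under 0.05. In TIM4+CD206hi samples the sum was 18.56, 17.96 and 18.41 without and 17.27, 17.48 and 17.58 with tumour, Clec4g was the most abundant gene, and 5 of 14 fell: Clec4g, Dpp4, Gpr182, Oit3 and Tek. Of 12 stellate cell markers, 3 fell in TIM4+CD206hi samples (in TIM4+CD206+ samples limma called none of 11, with 2 at an unadjusted p under 0.05), Colec11, Dcn and Lrat; the most abundant, Ecm1, was not among them, and the summed level was 13.62, 14.52 and 13.03 without and 13.58, 13.57 and 13.55 with tumour. The Kupffer cell markers themselves summed to 21.16, 20.80 and 20.82 without and 20.38, 20.29 and 20.33 with tumour in TIM4+CD206+ samples, where 2 of 12 fell, Adgre1 and Csf1r. In TIM4+CD206hi samples the Kupffer cell sum was 20.07, 20.06 and 20.42 without and 20.04, 19.85 and 19.95 with tumour, with none of 12 called by limma and 3 at an unadjusted p under 0.05. The part of any of these cell types in the changes of the 10 genes or of the wider list below was not tested.

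Male-specific genes and Xist, the transcript of the inactive X chromosome, were looked at in each table. In TIM4+CD206+ samples 3 of 4 male-specific genes were higher in every tumour-bearing than in any tumour-free sample, and the list summed to 9.53, 9.15 and 9.70 without and 10.61, 10.12 and 10.16 with tumour; limma called 0 of the 4 and 3 had an unadjusted p under 0.05. In TIM4+CD206hi samples limma called 0 as well, with 0 at an unadjusted p under 0.05 and a median change of -0.14. Xist was at 0 in every TIM4+CD206+ sample, at -1.99 or -1.98 in every TIM4+CD206hi sample, and was not tested in either table.

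In the Id3 table all 4 male-specific genes fell in the Clec4fCreId3f/f samples, where their summed level was 8.70 and 8.70 against 10.37, 10.46 and 10.64 in Id3f/f samples, with Ddx3y the most abundant and none at 0. Xist read 6.38, 6.33 and 6.36 in Id3f/f and 9.84 and 9.76 in Clec4fCreId3f/f samples. The sex of the animals and the genotype therefore cannot be told apart in this comparison. Kupffer cell markers divided evenly, with 4 of 12 higher and 4 lower, Id3 and Clec4f among the latter, and the highest mean was that of Clec4f (17.64) in Id3f/f and of Marco (17.95) in Clec4fCreId3f/f samples. Of the monocyte markers 1 of 9 tested fell, Plac8. Without being called, 3 others were higher in both Clec4fCreId3f/f samples than in any Id3f/f sample, and Ly6c2 was lower in both. The median change of the list was 0.03. Its sum, which Plac8 dominates, was 13.84, 13.68 and 13.95 in Id3f/f and 13.04 and 13.13 in Clec4fCreId3f/f samples. Pecam1 rose and Clec4g fell among 14 endothelial markers, and Tat rose among 12 hepatocyte markers. In limma none of 8 neutrophil, 5 B cell, 9 T or NK cell or 6 tumour epithelium markers was called, with 0 at an unadjusted p under 0.05, nor was any of 11 stellate or 6 dendritic cell markers, with 1 in each. Vcan, Ly6g and Cldn4 were at 0 in every sample of this table.

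**Figure D3:**
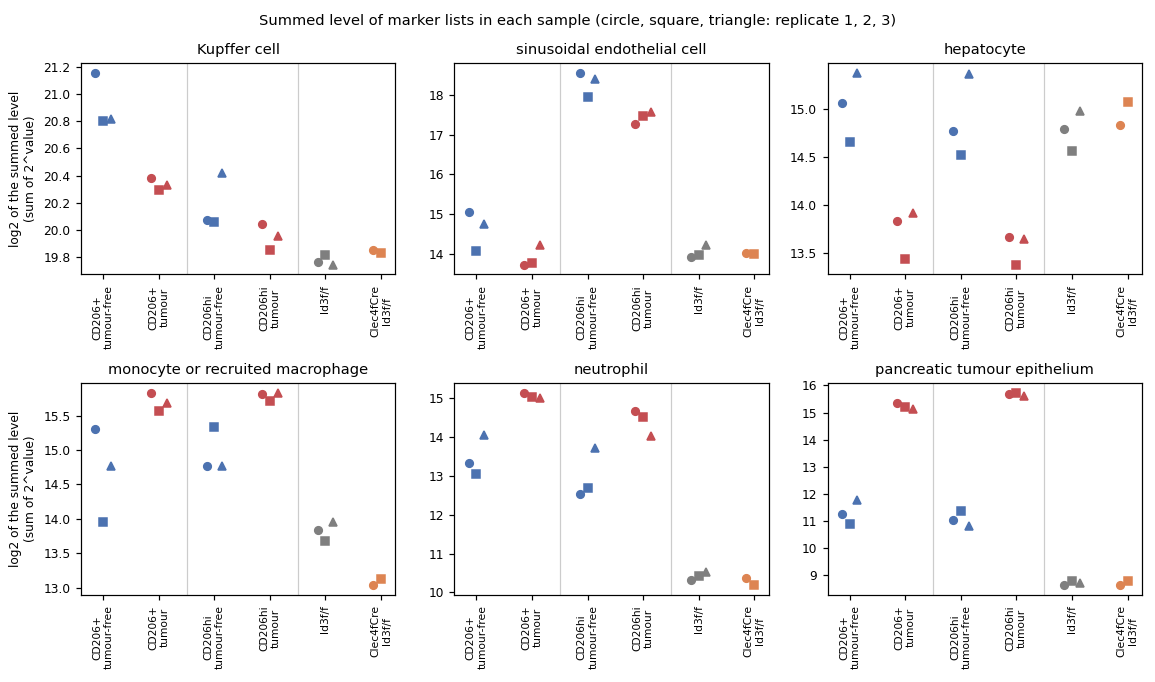
Log2 of the summed linear level (vertical axis) of marker lists in each sample, by group. The lists are Kupffer cell, sinusoidal endothelial cell, hepatocyte, monocyte or recruited macrophage, neutrophil and pancreatic tumour epithelium. Points are samples. Pancreatic tumour epithelium markers lie between 15.12 and 15.73 in all 6 tumour-bearing samples, above all 6 tumour-free samples, and sinusoidal endothelial markers are higher in the TIM4+CD206hi than in the TIM4+CD206+ samples, which were normalized apart.

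Among the receptors that bind phosphatidylserine directly, TIM4 tethers apoptotic cells to the macrophage. It is also part of the gate by which both subsets were sorted. The study gates Kupffer cells on TIM4 elsewhere too, so the Id3 samples may also have been selected on it. Timd4 read 14.87, 14.66 and 14.55 in tumour-free and 14.01, 13.76 and 14.06 in tumour-bearing TIM4+CD206+ samples. Every tumour-bearing sample was below every tumour-free sample. The change was -0.75 ± 0.16 (SE, adjusted p = 0.0463), lower in 3 of 3 samples, so that the tumour-free level was 1.68 times the tumour-bearing one. A fit that pairs the samples of this table through a replicate block gave an adjusted p of 0.0233. The call did not hold with each sample centred on its median (-0.82, adjusted p = 0.0885), without the filter on low values (adjusted p = 0.0678) or without the mean-variance trend (adjusted p = 0.0829). It did not hold either without tumour-free replicate 1 (adjusted p = 0.137) or 3 (0.0924), or without tumour-bearing replicate 1 (0.16), 2 (0.189) or 3 (0.139), while it was 0.0196 without tumour-free replicate 2; the estimate stayed between -0.82 and -0.66.

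In TIM4+CD206hi cells Timd4 read 14.71, 14.58 and 15.25 without and 14.27, 14.03 and 14.33 with tumour. The 3 tumour-bearing samples were again the lowest, and tumour-free replicate 3 was the highest. The change of -0.64 ± 0.22 (SE, adjusted p = 0.149), in the same direction in 3 of 3 samples, did not pass, but it did without tumour-free replicate 2 (-0.77, adjusted p = 0.0394). With Id3 deletion Timd4 was at 15.00 and 14.93 beside 14.92, 14.99 and 14.97 in Id3f/f cells. The 2 genotypes overlapped, and the difference was 0.01 ± 0.07 (SE, adjusted p = 0.973).

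Stabilin-1, a large scavenger receptor of macrophages and sinusoidal endothelium, was measured through Stab1. In TIM4+CD206+ cells it ranged from 11.25 to 12.17 without and from 12.15 to 12.46 with tumour, overlapping at a single sample of each group. The change was 0.60 ± 0.24 (SE, adjusted p = 0.246), and it was 0.37 without tumour-free replicate 2. Within each replicate number the tumour-bearing sample was the higher, and with the replicate block the change did not pass (adjusted p = 0.0804). In TIM4+CD206hi cells, where the endothelial marker sum was also high, Stab1 ranged from 13.31 to 14.60 without and from 13.43 to 13.80 with tumour, and the tumour-bearing samples lay inside the tumour-free range. Its change there was -0.29 ± 0.32 (SE, adjusted p = 0.613), and it was 0.05 and -0.60 without tumour-free replicates 1 and 2. In the Id3 table Stab1 ranged from 9.45 to 9.69 in Id3f/f and read 9.67 and 9.63 in Clec4fCreId3f/f cells, a difference of 0.07 ± 0.10 (SE, adjusted p = 0.754).

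Of the kinase receptors, MERTK takes up apoptotic cells in resting tissue macrophages. Mertk read 12.05, 12.13 and 12.04 in Id3f/f and 12.61 and 12.62 in Clec4fCreId3f/f samples. Both deleted samples lay above all 3 controls, and the distance between the groups was several times the spread within either. With Id3 deletion, where sex and genotype cannot be told apart, Mertk rose by 0.54 ± 0.08 (SE, limma adjusted p = 0.00745). Mertk was higher in 2 of 2 samples, at 1.46 times the Id3f/f level. It remained past the threshold under both scaling alternatives (0.52, adjusted p = 0.00856 with median centring and 0.59, adjusted p = 0.0047 with quantile normalization) and without any 1 Id3f/f sample. The call was lost without Clec4fCreId3f/f replicate 1 (0.55, adjusted p = 0.169) or replicate 2 (0.53, adjusted p = 0.161), where 1 sample was left in that group.

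With tumour, Mertk read 12.16, 12.53 and 12.48 in tumour-free against 12.20, 12.09 and 12.00 in tumour-bearing TIM4+CD206+ samples. Tumour-free replicate 1 lay among the tumour-bearing values, and the change was -0.29 ± 0.16 (SE, adjusted p = 0.429). In the TIM4+CD206hi subset it read 13.86, 13.45 and 13.31 without and 13.79, 13.60 and 13.86 with tumour. These groups overlapped, tumour-free replicate 1 being as high as the highest tumour-bearing sample. The change was 0.21 ± 0.19 (SE, adjusted p = 0.544), or 0.37 and 0.10 without tumour-free replicates 1 and 3. It was 0.05 with median centring and 0.32 with quantile normalization.

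AXL, which depends on GAS6 to recognize phosphatidylserine, is a kinase receptor that mouse Kupffer cells express. Axl read 16.11, 15.74 and 15.79 in tumour-free and 15.29, 15.14 and 15.25 in tumour-bearing TIM4+CD206+ samples. All 3 tumour-bearing samples were lower than any tumour-free sample. The change of -0.65 ± 0.16 (SE, adjusted p = 0.0745) did not pass, nor did it with the replicate block (adjusted p = 0.0502), but it did without tumour-free replicate 2 (-0.72, adjusted p = 0.0142).

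Among TIM4+CD206hi samples Axl read 15.24, 15.54 and 15.20 without and 15.12, 14.97 and 15.09 with tumour. The groups did not overlap here either, by a narrow margin. The change was -0.27 ± 0.16 (SE, adjusted p = 0.386), or -0.16 without tumour-free replicate 2. It was -0.43 with median centring and -0.09 with quantile normalization. With Id3 deletion Axl read 14.33 and 14.32 beside 14.10, 14.18 and 14.04. Both Clec4fCreId3f/f samples were above all Id3f/f samples, with a difference of 0.22 ± 0.08 (SE, adjusted p = 0.121) that passed the test under quantile normalization (0.32, adjusted p = 0.0285).

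LRP1 is a large endocytic receptor that engulfs cells bearing calreticulin. Lrp1 read 15.05, 15.03 and 15.07 in tumour-free and 14.96, 14.70 and 14.88 in tumour-bearing TIM4+CD206+ samples, all 3 of the latter lower. TIM4+CD206hi samples read 14.49, 14.10 and 14.13 without and 14.95, 14.68 and 14.85 with tumour, all 3 of the latter higher. The changes were -0.20 ± 0.15 (SE, adjusted p = 0.546) and 0.59 ± 0.18 (SE, adjusted p = 0.104), and neither passed; the former was -0.13 without tumour-bearing replicate 2. Together with Elmo1, Lrp1 was 1 of 2 among the 10 genes whose groups did not overlap in opposite directions in the 2 subsets, a pattern of 114 of the 13110 genes tested in both (0.87%); whether the changes differ between the subsets was not tested. In the Id3 table Lrp1 read 12.85, 12.79 and 12.67 in Id3f/f and 13.18 and 12.89 in Clec4fCreId3f/f cells. Both deleted samples were above the controls, replicate 2 by a narrow margin, and the difference was 0.27 ± 0.11 (SE, adjusted p = 0.159). It was 0.12 without Clec4fCreId3f/f replicate 1 and 0.41 without replicate 2, with the sample left assumed to vary like the other group.

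Among the bridges, GAS6 joins phosphatidylserine to AXL and MERTK. Gas6 read 7.68, 9.72 and 7.83 in tumour-free and 8.45, 9.45 and 8.87 in tumour-bearing TIM4+CD206+ samples. Tumour-free replicate 2 exceeded every tumour-bearing sample, whereas the other 2 tumour-free samples were below them all. The change was 0.51 ± 0.53 (SE, adjusted p = 0.711), and 1.17 (adjusted p = 0.0656) without that replicate, while it was 0.15 and 0.22 without tumour-free replicates 1 and 3 and 0.25 without tumour-bearing replicate 2. Gas6 in TIM4+CD206hi cells read 10.70, 12.85 and 10.08 without and 11.99, 11.85 and 12.25 with tumour. Replicate 2 was once more the tumour-free sample that stood above the tumour-bearing group. The change was 0.82 ± 0.65 (SE, adjusted p = 0.487) over all samples and 1.64 (adjusted p = 0.0042) without it, but 0.25 without tumour-free replicate 3. With Id3 deletion Gas6 was at 8.50 and 8.75, within or just beyond the Id3f/f range of 8.32 to 8.71, with a difference of 0.12 ± 0.13 (SE, adjusted p = 0.638).

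Protein S, encoded by Pros1, is a plasma bridge to MERTK that hepatocytes and endothelial cells also make. In TIM4+CD206+ cells Pros1 ranged from 10.59 to 10.92 without and from 10.65 to 10.86 with tumour, and the groups overlapped fully (0.05 ± 0.17, SE, adjusted p = 0.93). The TIM4+CD206hi samples read 14.32, 14.22 and 12.93 without and 13.62, 13.52 and 13.56 with tumour. Tumour-free replicate 3 was the lowest of the 6 samples and the other tumour-free samples were the highest. The change was -0.26 ± 0.36 (SE, adjusted p = 0.696), and without tumour-free replicate 3 it was -0.70 (adjusted p = 0.00951), but -0.01 and -0.06 without replicates 1 and 2. In the Id3 table Pros1 ranged from 10.53 to 11.00 in Id3f/f and read 10.95 and 10.92 in Clec4fCreId3f/f cells, inside that range (0.18 ± 0.13, SE, adjusted p = 0.445). Without Id3f/f replicate 3, the highest control, the difference was 0.31 (adjusted p = 0.0447), and without replicate 1 it was 0.07.

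MFGE8 couples phosphatidylserine to alpha-v integrins. Mfge8 read 9.87, 7.90 and 9.90 in tumour-free and 10.34, 11.22 and 9.91 in tumour-bearing TIM4+CD206+ samples. The groups did not overlap, but tumour-bearing replicate 3 and tumour-free replicate 3 differed by about 0.01, and tumour-free replicate 2 lay far below all others. The change was 1.27 ± 0.56 (SE, adjusted p = 0.295), and 0.60 (adjusted p = 0.314) without that replicate. Mfge8 in TIM4+CD206hi cells ranged from 11.88 to 12.46 without and from 11.44 to 12.85 with tumour (-0.18 ± 0.37, SE, adjusted p = 0.801), and leaving out each sample gave -0.60 to 0.11. With Id3 deletion it read 7.20 and 7.13 beside 7.46, 7.36 and 7.47. Both deleted samples were below all controls, and the difference of -0.27 ± 0.08 (SE, adjusted p = 0.0873) did not pass.

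Calreticulin is an endoplasmic reticulum chaperone that dying cells display at their surface, and Calr was among the most abundant of the 10 transcripts per kb. In TIM4+CD206+ cells Calr ranged from 14.75 to 15.52 without and from 14.77 to 14.96 with tumour, with tumour-free replicate 2 the lowest sample. The change was -0.31 ± 0.21 (SE, adjusted p = 0.54), and it passed without tumour-free replicate 2 (-0.53, adjusted p = 0.0321), while it was -0.14 without replicate 1. Calr in TIM4+CD206hi cells ranged from 13.93 to 14.96 without and from 14.61 to 14.70 with tumour (0.13 ± 0.27, SE, adjusted p = 0.791), and centring each sample on its median turned the sign (-0.03). It was 0.35, -0.16 and 0.21 without tumour-free replicates 1, 2 and 3. The Id3f/f range of 13.79 to 14.23 held both Clec4fCreId3f/f samples, at 14.19 and 14.10 (0.06 ± 0.13, SE, adjusted p = 0.829).

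ELMO1 relays signals from uptake receptors to Rac. Elmo1 read 10.45, 11.38 and 10.67 in tumour-free and 10.33, 10.26 and 10.20 in tumour-bearing TIM4+CD206+ samples. The tumour-bearing samples were the 3 lowest, and tumour-free replicate 2 was the highest. The change was -0.57 ± 0.25 (SE, adjusted p = 0.291), and -0.30 (adjusted p = 0.289) without that replicate. For TIM4+CD206hi cells Elmo1 read 11.33, 11.55 and 10.75 without and 11.82, 11.68 and 11.87 with tumour. Here the tumour-bearing samples were the 3 highest. The change was 0.58 ± 0.23 (SE, adjusted p = 0.208), and it passed without tumour-free replicate 2 (0.75, adjusted p = 0.0398), while it was 0.35 without replicate 3. In the Id3 table Elmo1 read 10.06, 10.31 and 10.00 in Id3f/f and 10.41 and 10.27 in Clec4fCreId3f/f samples, overlapping at 1 sample of each (0.22 ± 0.11, SE, adjusted p = 0.272).

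The wider machinery of apoptotic cell uptake was followed through 112 further genes in 8 groups: bridges and opsonins, other uptake receptors, engulfment machinery, corpse digestion and efflux, regulators of the kinase receptors and their ligands, find-me and do-not-eat-me genes, chaperones around calreticulin, and partners and ligands of LRP1. In TIM4+CD206+ cells with tumour, 7 of 102 tested were called, or 6.86%, against 3.54% of all genes, and all 7 were higher. By group these were 1 of 12 bridges and opsonins, 3 of 17 receptors, 1 of 15 engulfment genes and 2 of 12 find-me and do-not-eat-me genes, with none of the 20 digestion, 6 regulator, 12 chaperone or 8 LRP1-related genes past the threshold in limma (2, 3, 1 and 0 at an unadjusted p under 0.05). The list was chosen with earlier results of these data known, so no excess over all genes can be read from its share. The median change of the list was -0.06, against 0.02 over all genes. With the replicate number as a block, 20 were called, 13 higher and 7 lower, against 7.75% of all genes in that fit. The lower ones were 2 bridges and opsonins, 2 receptors, 2 digestion genes and 1 find-me or do-not-eat-me gene. Among the higher were 1 regulator and 1 chaperone. The labels do not say that samples of the same replicate number belong together. The count was 19, 9 higher and 10 lower, without tumour-free replicate 2, where 7.72% of all genes were called, and 4 without tumour-free replicate 3 or without tumour-bearing replicate 1 or 2.

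Cx3cr1, the receptor for the find-me signal fractalkine and also a gene of the monocyte list, rose from 9.02, 8.50 and 8.67 to 11.69, 11.19 and 10.61 in TIM4+CD206+ cells with tumour, a change of 2.43 ± 0.29 (SE, adjusted p = 0.00303). Anxa1, whose product annexin A1 binds phosphatidylserine, rose from 8.33, 8.71 and 8.99 to 11.06, 10.74 and 10.99, by 2.25 ± 0.22 (SE, adjusted p = 0.00113). Trem2, a lipid-binding receptor, rose from 11.27, 11.87 and 11.53 to 13.45, 13.34 and 13.13, by 1.74 ± 0.19 (SE, adjusted p = 0.00212). For these 3 genes every tumour-bearing sample was above every tumour-free one, and the call held under all alternatives run. Arhgef16, an exchange factor for the GTPase RhoG, rose by 1.92 ± 0.31 (SE, adjusted p = 0.0136), and its adjusted p was 0.0603 without tumour-free replicate 3, 0.0654 without tumour-bearing replicate 1 and 0.0598 without tumour-bearing replicate 2. Cd24a, a do-not-eat-me ligand, rose by 1.44 ± 0.25 (SE, adjusted p = 0.0198), and its adjusted p was 0.0752 without tumour-free replicate 1, 0.091 without tumour-bearing replicate 1 and 0.0823 without tumour-bearing replicate 2. Both were higher in 3 of 3 samples, in which the epithelial markers were higher too.

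Within TIM4+CD206hi cells 8 of 107 genes of this list tested were called, or 7.48%, against 7.23% of all genes; 6 were higher and 2 lower, and 4 of them, Trem2, Arhgef16, Cx3cr1 and Cd24a, were called in both subsets. Both genes that fell were opsonins (2 of 13 bridges and opsonins), and those that rose were 1 of 18 receptors, 1 of 16 engulfment genes, 1 of 7 regulators, 2 of 12 find-me and do-not-eat-me genes and 1 of 9 LRP1-related genes. No digestion gene of 20 and no chaperone of 12 passed limma (3 and 0 at an unadjusted p under 0.05). The median change of the list was 0.09, against 0.03 over all genes. The count reached 29 when tumour-free replicate 2 was left out, where 25% of all genes were called, and was 3 without tumour-free replicate 1 or without tumour-bearing replicate 1 or 2, and 5 without tumour-bearing replicate 3.

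Arhgef16 read 4.42, 4.78 and 4.06 without and 8.13, 7.87 and 8.10 with tumour in TIM4+CD206hi cells, a rise of 3.61 ± 0.24 (SE, adjusted p = 1.72e-04). Cx3cr1 rose from 9.26, 9.63 and 9.63 to 11.81, 11.70 and 11.22, by 2.07 ± 0.22 (SE, adjusted p = 0.00147), and Cd24a rose by 1.97 ± 0.25 (SE, adjusted p = 0.00327). These 3 calls held under every alternative run, with no overlap between groups. Socs3, an inhibitor of cytokine signalling induced by the kinase receptors, rose by 2.82 ± 0.52 (SE, adjusted p = 0.0193), with an adjusted p of 0.0872 without tumour-free replicate 1 and of 0.0834, 0.0871 and 0.0612 without tumour-bearing replicates 1, 2 and 3. Plat, a protease ligand of LRP1, rose by 2.45 ± 0.43 (SE, adjusted p = 0.0153), with an adjusted p of 0.051 without tumour-free replicate 1, 0.0659 without tumour-bearing replicate 1 and 0.0753 without tumour-bearing replicate 2. Each was higher in 3 of 3 samples, in which the epithelial markers were higher too. In TIM4+CD206+ cells Socs3 was higher without overlap but not called (1.84, limma adjusted p = 0.129), and Plat overlapped (0.20, adjusted p = 0.698). Anxa1, called in TIM4+CD206+ cells, was higher without overlap in TIM4+CD206hi cells but not called (1.06, limma adjusted p = 0.0543). Trem2, chosen here after its values were seen, because it was called in both subsets, rose by 1.63 ± 0.37 (SE, adjusted p = 0.0438), higher in 3 of 3 samples. Its adjusted p was 0.0596 without the filter and 0.061 with a stricter one, 0.0942 and 0.0843 without tumour-free replicates 1 and 3, and 0.174, 0.182 and 0.0772 without tumour-bearing replicates 1, 2 and 3.

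The 2 genes of the list that fell in TIM4+CD206hi cells, Mbl2 and Apoh, encode opsonins of plasma that hepatocytes make, and 7 of 12 hepatocyte markers fell in the same samples. Mbl2 averaged 7.31 without and 5.49 with tumour, a change of -1.83 ± 0.35 (SE, adjusted p = 0.0214), and Apoh changed by -1.50 ± 0.30 (SE, adjusted p = 0.0258), both lower in 3 of 3 samples. The adjusted p of Mbl2 was 0.0947 and 0.0542 without tumour-free replicates 1 and 3, and 0.095 and 0.0992 without tumour-bearing replicates 1 and 2. That of Apoh was 0.0835 without tumour-free replicate 1 and 0.124, 0.13 and 0.069 without tumour-bearing replicates 1, 2 and 3. In TIM4+CD206+ cells both were also lower in every tumour-bearing than in any tumour-free sample. Neither was called there by limma (Apoh -1.29, adjusted p = 0.0794, and Mbl2 -0.86, adjusted p = 0.125). The part of hepatocyte RNA in these changes was not tested.

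Of 100 genes of the list tested with Id3 deletion 14 were called, or 14%, against 6.44% of all genes, with 6 higher and 8 lower against 3.08% and 3.37% of all genes. Those that rose were 3 of 14 engulfment genes, Elmo2 and Vav1 among them, 1 of 13 bridges and opsonins, 1 of 20 digestion and efflux genes and 1 of 7 LRP1-related genes. Those that fell were 3 of 13 bridges and opsonins, C1qa and C1qb among them, 2 of 16 receptors, 2 of 7 regulators and 1 of 7 LRP1-related genes, while none of 11 find-me and do-not-eat-me genes and none of 12 chaperones passed limma (5 and 2 at an unadjusted p under 0.05). No excess over all genes can be read from these shares, since the list was chosen with earlier results of these data known. Sex and genotype cannot be told apart here either. The median change of the list was 0.01, against 0.00 over all genes. The count was 7 and 29 without Id3f/f replicates 1 and 3 (1.61% and 14.4% of all genes), and 0 and 1 without Clec4fCreId3f/f replicates 1 and 2, where the sample left was assumed to vary like the other group.

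Elmo2, a relative of Elmo1, read 11.05, 11.30 and 11.27 in Id3f/f and 11.97 and 12.10 in Clec4fCreId3f/f cells, a rise of 0.82 ± 0.10 (SE, adjusted p = 0.00364). Trem2 fell from 8.63, 8.54 and 8.59 to 7.60 and 7.70, a change of -0.94 ± 0.09 (SE, adjusted p = 0.00102), the opposite direction to its change with tumour in both subsets. C1qa, a chain of the opsonin C1q, fell from 17.41, 17.27 and 17.39 to 16.94 and 16.92, by -0.42 ± 0.06 (SE, adjusted p = 0.00799), and C1qb changed by -0.40 ± 0.06 (SE, adjusted p = 0.00644). Both deleted samples lay outside the control range for each of these 4 genes. Without Clec4fCreId3f/f replicates 1 and 2 in turn the adjusted p was 0.0826 and 0.12 for Elmo2, 0.214 and 0.197 for C1qa and 0.234 and 0.192 for C1qb, and for Trem2 it was 0.0592 without replicate 1. Under quantile normalization, which forces the most abundant genes of all samples to like values, the change was -0.16 for C1qa (adjusted p = 0.173) and -0.00 for C1qb. C1qc, chosen here after its values were seen, fell by 0.31 ± 0.06 (SE, adjusted p = 0.0156), lower in 2 of 2 samples, and stayed called under that normalization (-0.23, adjusted p = 0.0134); its adjusted p was 0.0602 without Id3f/f replicate 1 and 0.314 and 0.255 without Clec4fCreId3f/f replicates 1 and 2.

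Apoe, a lipid carrier and ligand of LRP1, fell from 19.88, 19.80 and 19.93 to 19.25 and 19.24 with Id3 deletion, by -0.62 ± 0.05 (SE, adjusted p = 6.76e-04), and Socs1, an inhibitor of cytokine signalling, changed by -0.48 ± 0.10 (SE, adjusted p = 0.0237). Genes that rose were Abcg1, a cholesterol exporter (0.56 ± 0.10, SE, adjusted p = 0.0172), Lpl, a lipase that binds LRP1 (0.55 ± 0.09, SE, adjusted p = 0.0135), Vav1, an exchange factor for Rac (0.54 ± 0.11, SE, adjusted p = 0.0236), and C3, the source of the opsonin C3b (0.51 ± 0.09, SE, adjusted p = 0.0134). All 6 moved in 2 of 2 samples. Quantile normalization set the change of Apoe, a transcript among the most abundant, to 0.00. Without Clec4fCreId3f/f replicates 1 and 2 in turn, the adjusted p was 0.0826 and 0.0788 for Apoe, 0.244 and 0.224 for Socs1, 0.244 and 0.187 for Abcg1, 0.244 and 0.17 for Lpl, 0.306 and 0.187 for Vav1, and 0.19 and 0.197 for C3. Without Id3f/f replicate 1 it was 0.08 for Socs1, 0.0598 for Lpl and 0.0647 for Vav1, and without Id3f/f replicate 2 it was 0.056 for Socs1.

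Genes whose pattern was most like that of each of the 10 were sought among 12221 genes tested in all 3 tables, over the 17 samples after subtraction of each table's mean, as a description only. Timd4 was followed most closely by 1300017J02Rik (r = 0.97), C8a (0.97) and Icos (0.96), and Axl by Gimap3 (r = 0.93), Aldh7a1 (0.92) and Cd209f (0.92). For Mertk they were Pik3ap1 (r = 0.88), Lyn (0.87) and Incenp (0.87), and for Elmo1 Limd1 (r = 0.95), Sirpa (0.93) and Etv5 (0.92). Gas6 ran with Ube2d2a, Tmem123 and Rfk (r = 0.97 each), and Lrp1 with Ick (r = 0.90), Ankrd16 (0.90) and Gm4750 (0.88). The nearest genes were Nup188 (r = 0.93), Dram1 (0.89) and Prkcsh (0.89) for Calr, and Mok (0.92), Cish (0.87) and Aldoart1 (0.85) for Mfge8. Pros1 had Cdc42ep4 (r = 0.89), Snhg10 (0.88) and Mxra8 (0.87), and Stab1 had Arl13b (r = 0.87), Dock6 (0.86) and Tubb4b (0.85). None of the 30 genes was itself among the 10. Without the 2 samples farthest from each gene's median, r was 0.95 for 1300017J02Rik with Timd4, 0.88 for Gimap3 with Axl, 0.86 for Pik3ap1 with Mertk, 0.86 for Limd1 with Elmo1, 0.96 for Ube2d2a with Gas6, 0.88 for Ick with Lrp1, 0.86 for Nup188 with Calr, 0.84 for Mok with Mfge8, 0.71 for Arl13b with Stab1 and 0.66 for Cdc42ep4 with Pros1. The lowest of the 30 was 0.57, for Cish with Mfge8. The samples of a table share their normalization.

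ID3 is known to hold E proteins away from E-box motifs, so the 250 bases before the start of each gene were searched for CANNTG, the E-box, which reads the same on both strands. RefSeq promoters of build GRCm38.p6 gave 11 entries for the 10 genes, with 2 starts for Elmo1. CANNTG was present in 21753 of 32851 promoters of that length (66.2%), and CAGCTG or CAGGTG on either strand, which are each a form of it, in 9113 (27.7%). The 2 promoters shown belong to the gene that passed the test with Id3 deletion and the gene that passed with tumour. Mertk, at chr2:128698665-128698914 on the plus strand, held 0 matches to CANNTG, and Timd4, at chr11:46810549-46810798 on the plus strand, held 2, which are in capitals. A match is a description of the letters and does not show binding, nor does the lack of one show its absence.
Mertk: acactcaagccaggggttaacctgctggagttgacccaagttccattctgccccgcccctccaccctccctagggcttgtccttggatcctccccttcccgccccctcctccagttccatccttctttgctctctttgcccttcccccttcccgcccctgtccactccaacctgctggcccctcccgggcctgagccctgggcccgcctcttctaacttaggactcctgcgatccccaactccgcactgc
Timd4: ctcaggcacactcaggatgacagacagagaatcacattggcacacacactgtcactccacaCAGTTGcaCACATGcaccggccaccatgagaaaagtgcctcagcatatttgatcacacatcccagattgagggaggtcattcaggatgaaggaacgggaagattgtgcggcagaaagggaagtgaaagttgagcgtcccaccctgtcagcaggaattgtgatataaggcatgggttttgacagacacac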

How the data were processed

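Sorted Kupffer cells were sequenced as amplified total RNA. The authors aligned reads with STAR 2.7.10a, counted them per gene with HTSeq and used DESeq2, per the labels. The values they deposited are log2 values that look like a regularized log transformation, which is not stated, made separately for each of the 3 tables, although the column names call them TPM. Depth is unknown, so no counting interval is given.

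Each comparison was fitted within its own table with limma 3.58.1 in R 4.3.3 (mean-variance trend, two-sided, Benjamini-Hochberg over all genes tested, called at an adjusted p under 0.05). Genes needed a value of at least log2 of 10, or 3.32, in as many samples as the smaller group has, 3 with tumour and 2 for Id3; all 10 genes passed in each table. The members and lists were chosen with earlier results of these data known. Genes named were the 10 members, up to 5 called genes per direction of the wider list, the 3 genes most alike each member, and the most abundant and defining markers; exceptions are stated. Marker lists covered Kupffer, endothelial, stellate, hepatocyte, monocyte, neutrophil, B, T or NK, dendritic and tumour epithelial cells, male-specific genes and Xist.

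Alternatives were no filter, a mean of at least log2 of 50, no trend, median centring, quantile normalization, the replicate number as a block, and leaving out each sample. Deviations from the group means correlated within replicate numbers in TIM4+CD206+ samples (r = 0.35, 0.564 and 0.149), not in TIM4+CD206hi (-0.048, -0.132 and -0.051) or Id3 samples (-0.073 and -0.1). Transcript lengths were those of the longest RefSeq-matched GENCODE transcript of GRCm38, the mm10 assembly named in the labels, since the tables hold none; the study's methods name GRCm39 or mm10. Median centring and quantile normalization were computed in R, and the lists, levels and promoter motifs in Python 3.11.15.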

Additional observations from a re-analysis of the deposited data

Results flagged for a closer look

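Among the 10 genes and the genes of the wider list called in any comparison, for 3 genes the tumour-bearing and tumour-free samples did not overlap in either subset, and the direction was opposite: lower with tumour in TIM4+CD206+ and higher in TIM4+CD206hi cells. Of all 13110 genes tested in both subsets 114, or 0.87%, had such opposite directions either way round. For Lrp1 the log2 change was -0.20 in the former and 0.59 in the latter, 0.79 apart. For Elmo1 the changes were -0.57 and 0.58, 1.15 apart. Vav1, named for its change with Id3 deletion, read 13.64, 13.66 and 13.81 without and 13.33, 13.26 and 13.34 with tumour in TIM4+CD206+ cells, and 13.09, 13.01 and 12.62 without and 13.31, 13.20 and 13.14 with tumour in TIM4+CD206hi cells, and its changes were 0.70 apart. None of these differences between the subsets was tested, none of the underlying changes was called by limma at an adjusted p under 0.05, and the 2 subsets were normalized apart.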

How the results depend on the processing

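The calls among the 10 genes depended on the processing; the cause was not tested unless stated. In TIM4+CD206+ cells, where 1 was called, the count was 0 with no filter, without the trend and with median centring. In TIM4+CD206hi cells, where 0 were called by limma (3 at an unadjusted p under 0.05), it was 1 with quantile normalization. With Id3 deletion, where 1 was called, it was 2 with quantile normalization and 2 with the replicate block. Leaving out each sample in turn gave 0 to 3, 0 to 3 and 0 to 2.

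All genes called numbered 469, 1053 and 827. With the replicate block they were 1026 in TIM4+CD206+ cells and 2089 with Id3 deletion, where the block takes Id3f/f replicate 3 out of the contrast, since it has no partner. The stricter filter gave 600 in TIM4+CD206hi cells, and no filter gave 477 with Id3 deletion. Leaving out each sample gave 231 to 1022, 579 to 3634 and 17 to 1850. In the wider list, where 7, 8 and 14 were called, the replicate block gave 20 in TIM4+CD206+ cells and 30 with Id3 deletion, and leaving out each sample gave 4 to 19, 3 to 29 and 0 to 29. In TIM4+CD206+ cells, where deviations correlated within replicate numbers, the block changed no call among the 10 genes.

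Signs turned in genes that were not called. Median centring gave -0.02 for Pros1 in TIM4+CD206+ cells, -0.03 for Calr in TIM4+CD206hi cells and -0.02 for Timd4 with Id3 deletion. The replicate block gave -0.00 for Stab1 and -0.09 for Calr with Id3 deletion. Leaving out each sample gave -0.01 to 0.16 for Pros1 in TIM4+CD206+ cells; -0.60 to 0.05 for Stab1, -0.60 to 0.11 for Mfge8 and -0.16 to 0.35 for Calr in TIM4+CD206hi cells; and -0.03 to 0.04 for Timd4, -0.00 to 0.12 for Stab1, -0.01 to 0.25 for Gas6 and -0.09 to 0.14 for Calr with Id3 deletion. Where 1 Clec4fCreId3f/f sample was left, it was assumed to vary like the other group. Levels per kb differ from the values without length by a constant for each gene, which changes their order and no difference between groups. The unknown depth limits what can be said of the lowest values.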
